A study of Mus musculus with 4 samples.

Results

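The 40 genes described here mark the blood vessels of the brain and the blood inside them, and they were followed in the hippocampus of mice with and without Tas1r3, the shared subunit of the sweet and umami taste receptors. They were taken by name from the marker genes of 5 kinds of cell or function. These are endothelial receptors and surface proteins (12 genes), junctions and transporters of the blood-brain barrier (10), pericytes (7), vascular smooth muscle (6) and red cells (5). All 40 were found among the 16146 genes of the deposited tables, and all 40 passed the filter on low values with the 15705 genes that were tested. The 2 groups were wild-type mice (WT-WD) and Tas1r3 knockout mice (KO-WD), and both had been fed a western diet for 18 weeks, so no animals on another diet enter the comparison. Each group had 2 libraries of hippocampal total RNA. The sources used here do not give strain, sex, age, the knockout allele or whether blood was flushed from the brain. No label states that each library is its own animal; p-values therefore describe the spread among 4 libraries, and that spread may be technical.

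Brain capillaries are tubes of endothelial cells sealed by tight junctions, and these cells carry glucose, lipids and other solutes across and pump many foreign compounds back. Pericytes sit on the capillary wall and help to keep the barrier closed, while smooth muscle cells ring the arteries and arterioles and set their width. Red cells stay in the vessels after death unless the brain is perfused, and young red cells still hold globin and haem synthesis transcripts, so a bulk tissue library reads vessel wall and trapped blood together. In such a library, fewer cells of a type and less RNA per cell cannot be told apart.

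The deposited values are normalized signal per RefSeq transcript, called units here, and each library sums to about 2.99e+06 units. The smallest step between low values put the depth at between 1.16e+07 and 1.60e+07 reads per library, and 3 reads, the most that a count of 0 would allow, were worth between 0.563 and 0.775 units. That limit covers counting error only. Tas1r3 itself, the check on the labels, had 16.1 and 15.9 units in WT-WD against 0.887 and 1.85 units in KO-WD, with a log2 difference of -2.88 (SE 0.34, limma adjusted p = 0.0812). Every difference below is KO-WD minus WT-WD on the log2(units + 1) scale, which understates the change of low genes. All p-values come from 1 limma fit over the 15705 genes, and a gene was called at an adjusted p under 0.05; single transcripts were fitted the same way. Adjustment over so many genes gives long runs of genes one shared value, here often 0.902. Across all genes 10 were called, 0.0637% of those tested. Neurons, the defining cells of the tissue, gave 7 marker genes with summed signal between 18029 and 19501 units in the 4 libraries.

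No vascular or blood gene was called. The smallest adjusted p in limma was 0.733, for Slc2a1, and 10 of the 40 (25%) had an unadjusted p under 0.05, as had 5.28% of all genes. The levels nonetheless leaned one way, with 30 of 40 genes lower in KO-WD (75%, against 49.9% of all genes tested) and a median log2 difference of -0.24, against 0.00027 for all genes. All 40 were measured in the same 4 libraries and many mark the same cells, so the shares given here do not count independent observations. The 8 lower genes with an unadjusted p under 0.05 were Cdh5, Pecam1, Tie1, Slc2a1, Rgs5, Myh11, Tagln and Hba-a2, which is 20% of the 40 where 2.9% of all genes had such a value. The 2 higher ones were Ly6c1 and Slco1a4, 5% where all genes gave 2.38%. In 15 of the 40 both KO-WD libraries lay below both WT-WD libraries (37.5%, background 18.4%), and in 6 both lay above (15%, background 17.9%). The smooth muscle and red cell genes were farthest from 0, with medians of -0.52 and -0.47, and the barrier genes nearest, with -0.053. With 1 library left out at a time the smooth muscle median ran from -0.88 (without KO-WD 1) to -0.26 (without KO-WD 2) and the red cell median from -0.62 (without WT-WD 1) to -0.16 (without WT-WD 2), and without KO-WD 2 the pericyte median of -0.33 lay farther from 0 than that of smooth muscle.

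**Figure D1:**
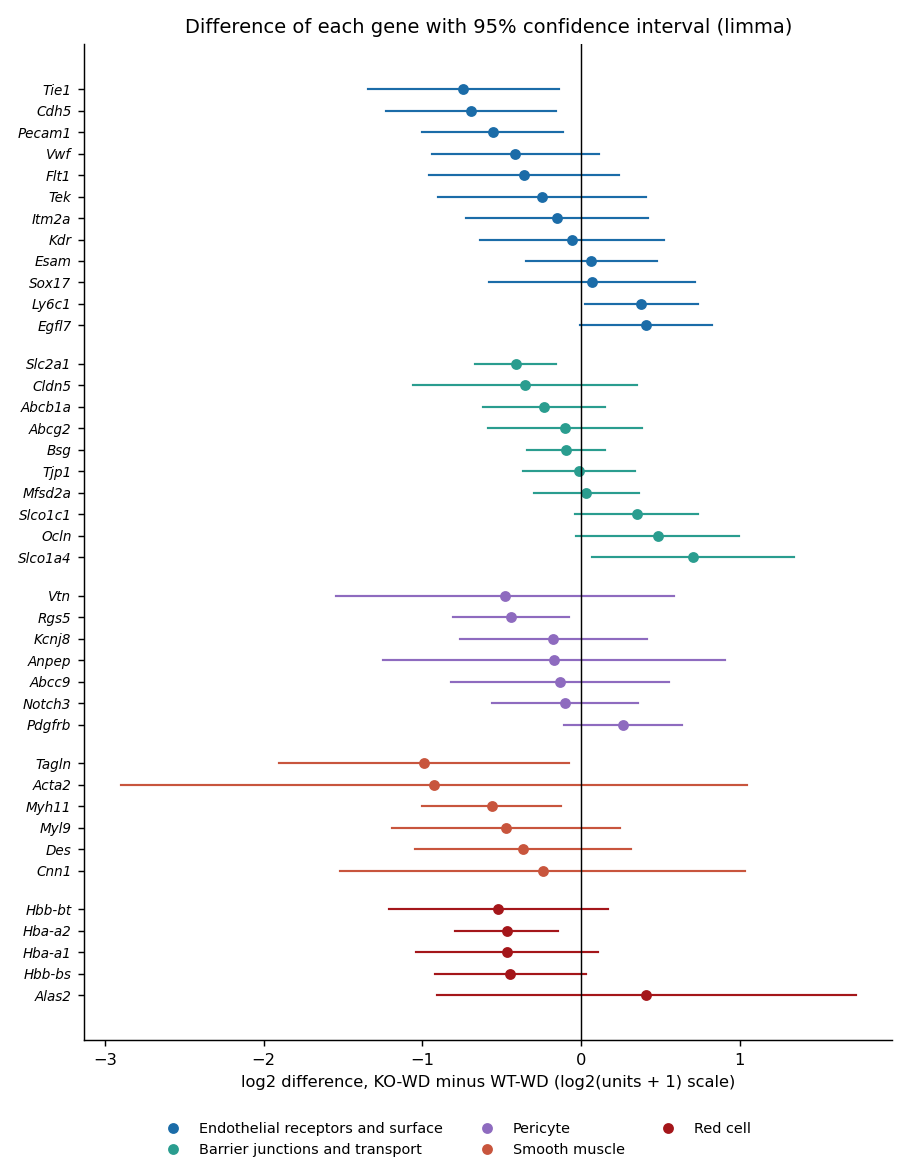
Log2 difference (KO-WD minus WT-WD, log2(units + 1) scale) of each of the 40 genes, coloured by kind of gene; points are limma estimates and lines their 95% confidence intervals. The intervals of 8 lower genes and of Ly6c1 and Slco1a4 on the higher side lie clear of 0 before adjustment for multiple tests, all 6 smooth muscle points lie below 0, and the barrier genes spread to both sides.

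The size of this lean varied with the libraries used. WT-WD 2 was the highest of the 4 libraries in 22 of the 40 genes (55%, against 26.8% of all genes), and KO-WD 2 was the lowest in 20 (50%, against 26.4%). Both held together in 14 genes (35%, against 10.2%). A lean towards lower KO-WD values by itself raises these shares, so they do not isolate single libraries. Without WT-WD 2, 2 of the 40 had an unadjusted p under 0.05 and neither was a lower gene, where 3.64% of all genes had such a value, and the median was -0.15. Without KO-WD 2 there were 4, of which 3 were lower (6.04% of all genes), and the median was -0.19. Without WT-WD 1 there were 13, of which 12 were lower (5.59% of all genes), and without KO-WD 1 there were 12, all lower (8.76% of all genes). The median stayed below 0 without any 1 of the 4 libraries, between -0.36 and -0.15.

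**Figure D2:**
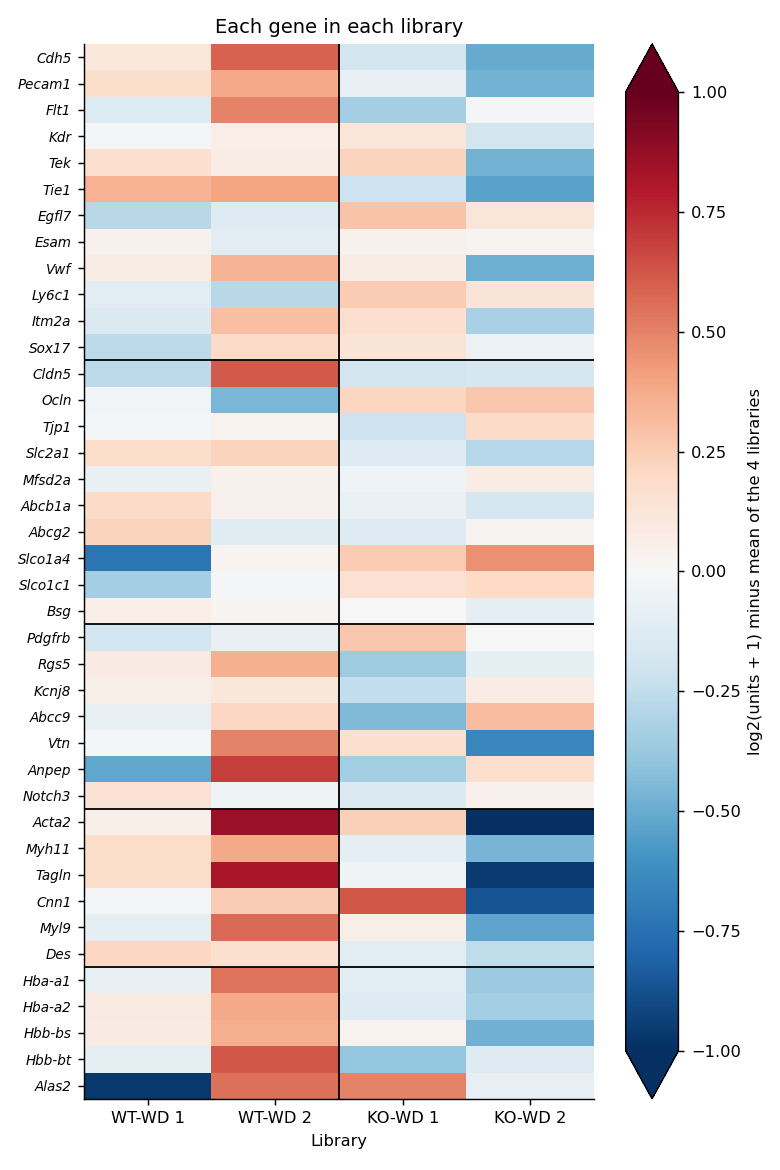
Level of each gene in each library as log2(units + 1) minus the mean of the 4 libraries, by colour from blue (lower) to red (higher); horizontal lines divide the 5 kinds of gene and the vertical line divides the genotypes. The WT-WD 2 column is red and the KO-WD 2 column blue over most smooth muscle and red cell genes, while WT-WD 1 and KO-WD 1 are close to each other in many rows.

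Among the endothelial receptors and surface proteins, 8 of 12 genes were lower in KO-WD and 4 higher, with a median log2 difference of -0.20 that turned to 0.084 without KO-WD 2. Cdh5 encodes VE-cadherin, the adhesion protein of endothelial junctions. It stood at 40.02 and 56.2 units in WT-WD and at 32.6 and 25.8 units in KO-WD. Its groups did not overlap, and its level was 1.61-fold lower in KO-WD (log2 -0.69, SE 0.23, limma adjusted p = 0.89). Pecam1, the adhesion protein CD31 of endothelial cells, platelets and leukocytes, stood at 64.6 and 74.6 units in WT-WD and at 53.7 and 40.8 units in KO-WD. Here too the groups were apart, with a log2 difference of -0.56 (SE 0.19, limma adjusted p = 0.89). The ratio of Cdh5 to Pecam1 signal was 0.620 and 0.754 in WT-WD and 0.607 and 0.633 in KO-WD, so these 2 genes stood in nearly one proportion in 3 libraries, and Cdh5 took a larger share in WT-WD 2.

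The Tie receptors read angiopoietins, which steady or loosen the vessel wall. Tie1, the orphan partner of Tek, stood at 15.8 and 16.3 units in WT-WD and at 10.4 and 8.10 units in KO-WD. The WT-WD libraries nearly coincided and both KO-WD libraries were lower, with a log2 difference of -0.74 (SE 0.26, limma adjusted p = 0.896). Tek, the angiopoietin receptor itself, stood at 21.1 and 19.8 units in WT-WD and at 22.0 and 13.2 units in KO-WD. KO-WD 1 was the highest of these and KO-WD 2 the lowest, so the groups overlapped.

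The VEGF receptors gave no such separation. Flt1, the decoy-like VEGF receptor 1, had the largest summed signal of the 12, at 146 and 227 units in WT-WD and at 127 and 158 units in KO-WD, a log2 difference of -0.36 (SE 0.24, limma adjusted p = 0.91). Kdr, the main signalling receptor for VEGF, stood at 13.6 and 14.4 units in WT-WD and at 15.0 and 11.96 units in KO-WD. Both genes overlapped between the groups, and the 95% interval of the Kdr difference ran from -0.64 to 0.52 on the log2 scale.

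Of the 12 endothelial genes, 2 were higher in both KO-WD libraries than in either WT-WD library (16.7%). That share was near the background of 17.9% of all genes. Ly6c1, a surface antigen of brain endothelium that some leukocytes also carry, stood at 65.6 and 57.9 units in WT-WD and at 84.3 and 77.0 units in KO-WD. The log2 difference was 0.38 (SE 0.15, limma adjusted p = 0.902), and 39% of the 50-base windows of its transcripts are also found in Ly6c2 or Ly6a, so its reads may be shared with them. Egfl7, a secreted protein of endothelial matrix, stood at 31.8 and 35.4 units in WT-WD and at 47.5 and 42.3 units in KO-WD, a log2 difference of 0.41 (SE 0.18, limma adjusted p = 0.902). The Egfl7 gene hosts the microRNA gene Mir126a, and its exons overlap Gm20532 on the same strand and Agpat2 on the other. The sources used here do not say whether read strand was used, and reads from the Agpat2 overlap cannot be told apart without it. Strand does not separate Egfl7 from Gm20532, in which 11.8% of the 50-base windows of Egfl7 are also found.

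The other 4 endothelial genes were level or varied with single libraries. Vwf, the clotting protein stored in endothelial granules, stood at 58.9 and 70.9 units in WT-WD and at 58.9 and 39.6 units in KO-WD (log2 -0.41, limma adjusted p = 0.902), so that only KO-WD 2 stood clearly apart. Esam, an adhesion molecule of endothelial junctions, lay between 32.5 and 36.1 units in all 4 libraries. Itm2a, a membrane protein enriched in brain endothelium, ranged from 29.2 to 45.4 units, with its highest value in WT-WD 2 and its lowest in KO-WD 2. Sox17, a transcription factor of arterial endothelium, ranged from 9.51 to 13.4 units, with both extremes in WT-WD.

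**Figure D3:**
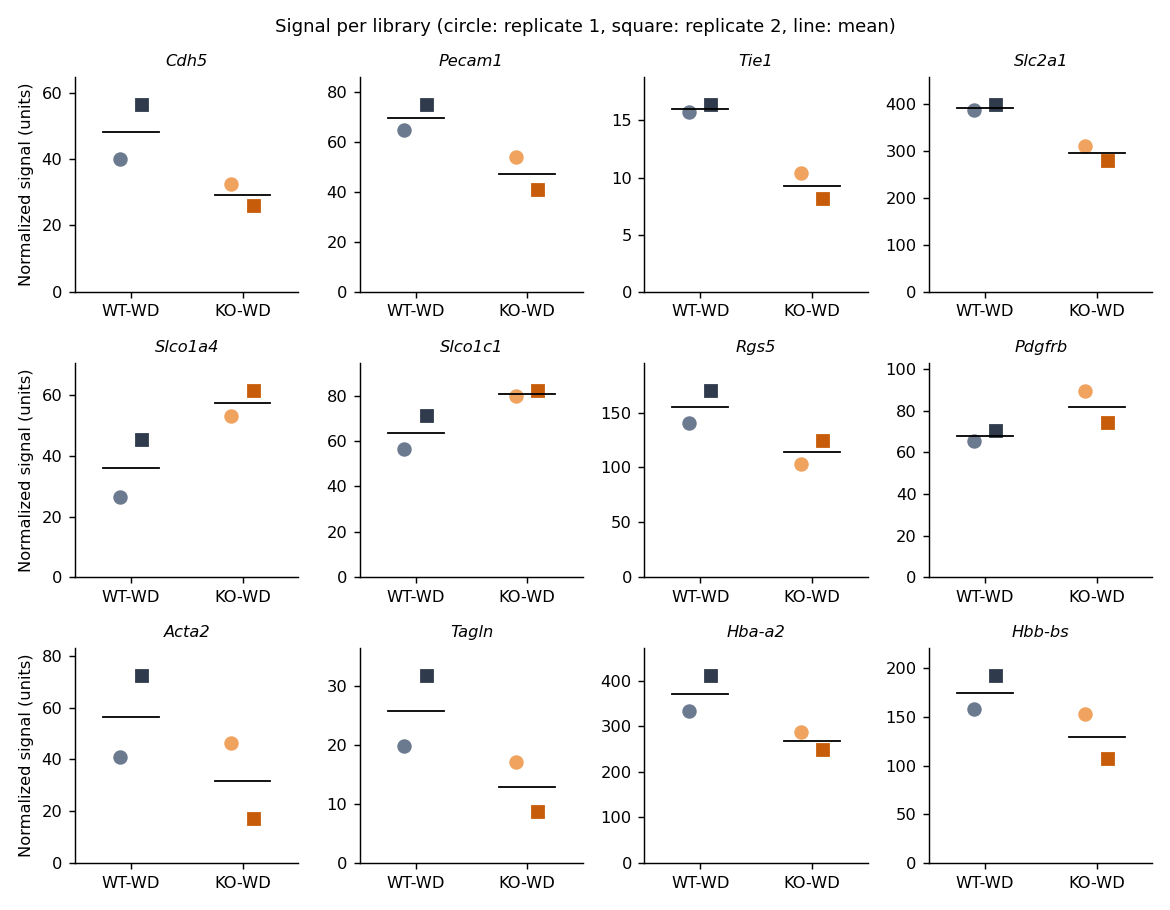
Signal in units of 12 of the genes in each library, with WT-WD at the left and KO-WD at the right of each panel; circles are replicate 1, squares replicate 2 and lines the mean of the 2. Tie1 and Slc2a1 have tight groups that are apart (386 and 397 against 310.1 and 279 units for Slc2a1), whereas in Acta2 the KO-WD 1 value of 46.2 lies within the WT-WD range of 40.8 to 72.2.

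The barrier genes were divided, with 6 of 10 lower and 4 higher. Their median of -0.053 was 0.048 without WT-WD 2 and 0.034 without KO-WD 1, so its sign depended on single libraries. Slc2a1, the glucose transporter GLUT1 of barrier endothelium and, in another glycosylated form, of astrocytes, had the smallest p of the 40 genes. It stood at 386 and 397 units in WT-WD and at 310.1 and 279 units in KO-WD. The level was 1.33-fold lower in KO-WD (log2 -0.41, SE 0.11, 95% interval -0.67 to -0.16, limma adjusted p = 0.733), with a gap between the groups larger than the spread within either. Its exons overlap the antisense gene Gm12868. The astrocyte marker Aqp4, a water channel of astrocyte end-feet on the vessel wall, stood at 298 and 295 units in WT-WD and at 211 and 189 units in KO-WD, and the astrocyte filament gene Gfap at 927 and 1079 against 756 and 758 units. Astrocyte markers were lower in 6 of 7 genes, with a median log2 difference of -0.083 and a summed signal of 8680 and 8948 units in WT-WD and 8072 and 8338 units in KO-WD; their part in the Slc2a1 difference was not tested.

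The organic anion carriers went the other way. Slco1a4, which carries organic anions and steroid conjugates across the luminal and abluminal membranes, stood at 26.6 and 45.5 units in WT-WD and at 53.4 and 61.6 units in KO-WD. WT-WD 1 was far below the other 3 libraries, and the log2 difference of 0.70 (SE 0.27, limma adjusted p = 0.902) was 0.33 without it. Slco1c1, the thyroxine carrier of the barrier, stood at 56.3 and 71.0 units in WT-WD and at 79.6 and 82.1 units in KO-WD (log2 0.35, SE 0.16, limma adjusted p = 0.902). Ocln, the tight junction protein occludin, stood at 27.3 and 19.95 units in WT-WD and at 32.4 and 33.6 units in KO-WD (log2 0.48, SE 0.22, limma adjusted p = 0.902). In all 3 genes both KO-WD libraries were above both WT-WD libraries, which is 30% of the 10 barrier genes, against 17.9% of all genes.

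Slco1c1 and Ocln are also used by the choroid plexus, the epithelium that makes cerebrospinal fluid beside the hippocampus. All 14 choroid plexus markers were tested and all 14 were higher in KO-WD, with a median log2 difference of 0.97, and 7 (50%) had an unadjusted p under 0.05, against 2.38% of all genes on the higher side. Their summed signal was 3764 and 1558 units in WT-WD and 7490 and 3828 units in KO-WD, and none of the 14 was at 0 in any library. Prlr, Otx2 and F5 had the smallest p-values, and F5 stood at 65.8 and 51.8 units in WT-WD and at 173 and 133 units in KO-WD. KO-WD 1 carried the most of this signal and WT-WD 2 the least. The part of the choroid plexus in the higher barrier genes was not tested.

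The log2 differences of the other 6 barrier genes ran from -0.35 to 0.034. Cldn5, the claudin that forms most of the endothelial tight junction, stood at 38.7 and 71.6 units in WT-WD and at 40.8 and 41.2 units in KO-WD. WT-WD 2 alone was high, and the log2 difference of -0.35 was 0.082 without it. Bsg, the broadly expressed membrane protein basigin that escorts monocarboxylate transporters, had the most signal of the 10, at 1489.8 and 1451 units in WT-WD and at 1423 and 1335 units in KO-WD (log2 -0.094, SE 0.10, limma adjusted p = 0.929). Tjp1, the junction scaffold ZO-1, averaged 233 units in both groups. Mfsd2a, the carrier of lysophosphatidylcholine with docosahexaenoic acid, had a mean of 81.9 units in WT-WD against 83.9 in KO-WD, and the 95% interval of its log2 difference ran from -0.30 to 0.36. Of the efflux pumps, Abcb1a (P-glycoprotein) stood at 53.7 and 48.3 units in WT-WD and at 44.7 and 41.7 units in KO-WD, lower without overlap (log2 -0.23, limma adjusted p = 0.91), and 17% of its 50-base windows are shared with Abcb1b or Abcb4. The other pump, Abcg2, lay between 27.7 and 35.5 units.

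Pericyte genes were lower in 6 of 7 cases, with a median log2 difference of -0.17, which was -0.0087 without KO-WD 1 and -0.33 without KO-WD 2. Rgs5, a regulator of G protein signalling that marks brain pericytes, stood at 140.2 and 169.9 units in WT-WD and at 103 and 124 units in KO-WD. Its groups were apart and its level was 1.36-fold lower in KO-WD (log2 -0.44, SE 0.16, limma adjusted p = 0.902). Vtn, the matrix protein vitronectin that brain pericytes secrete, had the most signal of the 7, at 174 and 247 units in WT-WD and at 197 and 111 units in KO-WD. KO-WD 1 lay between the WT-WD libraries, and the log2 difference was -0.48 (SE 0.37, limma adjusted p = 0.912). Pdgfrb, the receptor that keeps pericytes on the vessel, was the exception and was higher without overlap, at 65.3 and 70.3 units in WT-WD and at 89.6 and 74.2 units in KO-WD (log2 0.26, SE 0.16, limma adjusted p = 0.902).

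Kcnj8 and Abcc9 encode the pore and the sulphonylurea receptor of the ATP-sensitive potassium channel of pericytes. Kcnj8 stood between 10.8 and 14.1 units and Abcc9 between 14.5 and 25.02 units, with overlapping groups in both. Notch3, the receptor that mural cells need to mature, lay between 25.9 and 31.9 units. Anpep, the surface peptidase CD13, was the lowest of the group at 4.39 to 11.4 units, or about 17 to 61 estimated reads, and both its extremes were in WT-WD. The log2 differences of these 4 genes ran from -0.17 to -0.10.

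All 6 smooth muscle genes were lower in KO-WD on average, and their summed signal was 161 and 230.3 units in WT-WD and 156 and 91.5 units in KO-WD. In every one of the 6, KO-WD 2 was the lowest library. Acta2, the smooth muscle actin, stood at 40.8 and 72.2 units in WT-WD and at 46.2 and 16.9 units in KO-WD. The groups overlapped and the log2 difference of -0.93 had a 95% interval from -2.90 to 1.05 (SE 0.65, limma adjusted p = 0.91). Tagln, an actin-binding protein of smooth muscle, stood at 19.9 and 31.7 units in WT-WD and at 17.1 and 8.56 units in KO-WD (log2 -0.99, SE 0.38, limma adjusted p = 0.902), and its log2 difference was -0.53 without KO-WD 2. Its exons overlap Pcsk7 on the other strand. Myh11, the smooth muscle myosin heavy chain, stood at 60.9 and 69.5 units in WT-WD and at 49.7 and 38.4 units in KO-WD, 1.48-fold lower without overlap (log2 -0.56, SE 0.19, limma adjusted p = 0.89).

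The contractile genes did not keep one proportion across the libraries. The ratio of Acta2 to Tagln was 2.05 and 2.28 in WT-WD and 2.71 and 1.98 in KO-WD. The ratio of Acta2 to Myh11 was 0.671 and 1.04 in WT-WD and 0.930 and 0.440 in KO-WD, so KO-WD 2 had the least Acta2 for its Myh11. Myl9, a regulatory light chain of myosin, stood at 29.3 and 46.6 units in WT-WD and at 32.6 and 21.3 units in KO-WD, and KO-WD 1 lay inside the WT-WD range (log2 -0.47, SE 0.30, limma adjusted p = 0.908). Des, the intermediate filament desmin, stood at 8.01 and 7.70 units in WT-WD and at 6.21 and 5.55 units in KO-WD, lower without overlap (log2 -0.37, limma adjusted p = 0.91). Cnn1, the actin-binding protein calponin, was near the limit of detection, at 2.07 and 2.69 units in WT-WD and at 3.77 and 0.696 units in KO-WD, where the last value is worth about 3 reads.

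Smooth muscle promoters often carry the CArG box, the binding motif of serum response factor. Promoter sequences (250 bases before the start of transcription and 50 after it) were given for 31 of the 40 genes, without Tagln and Myh11. Only the strict motif CCWWWWWWGG (W for A or T) was searched, so looser CArG boxes in the other promoters would be missed. Of the 31 genes 1, Myl9, had this motif on either strand within the 250 bases before its start. It was found in 1.47% of the 32851 promoters in the RefSeq set (GRCm38.p6). The stretch around the Myl9 motif lies at chr2:156775278-156775337 on the plus strand and has the motif in capitals. It is shown because it is the only such match among the members with a promoter sequence.
Myl9: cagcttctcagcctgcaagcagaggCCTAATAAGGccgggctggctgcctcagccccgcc

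Meningeal fibroblasts wrap the larger surface vessels and come along with them in a dissection. Of their 10 markers 8 were lower in KO-WD, with a median log2 difference of -0.36 and a summed signal of 986 and 1273 units in WT-WD and 1092 and 695 units in KO-WD. None was at 0 in any library. WT-WD 2 was the highest library in 8 of the 10 and KO-WD 2 the lowest in 9, the same pair of libraries that stood out in smooth muscle. Pdgfra, also a marker of oligodendrocyte precursors, stood at 183 and 188 units in WT-WD and at 158 and 146 units in KO-WD (limma adjusted p = 0.902). The part of the meninges in the mural differences was not tested.

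**Figure D4:**
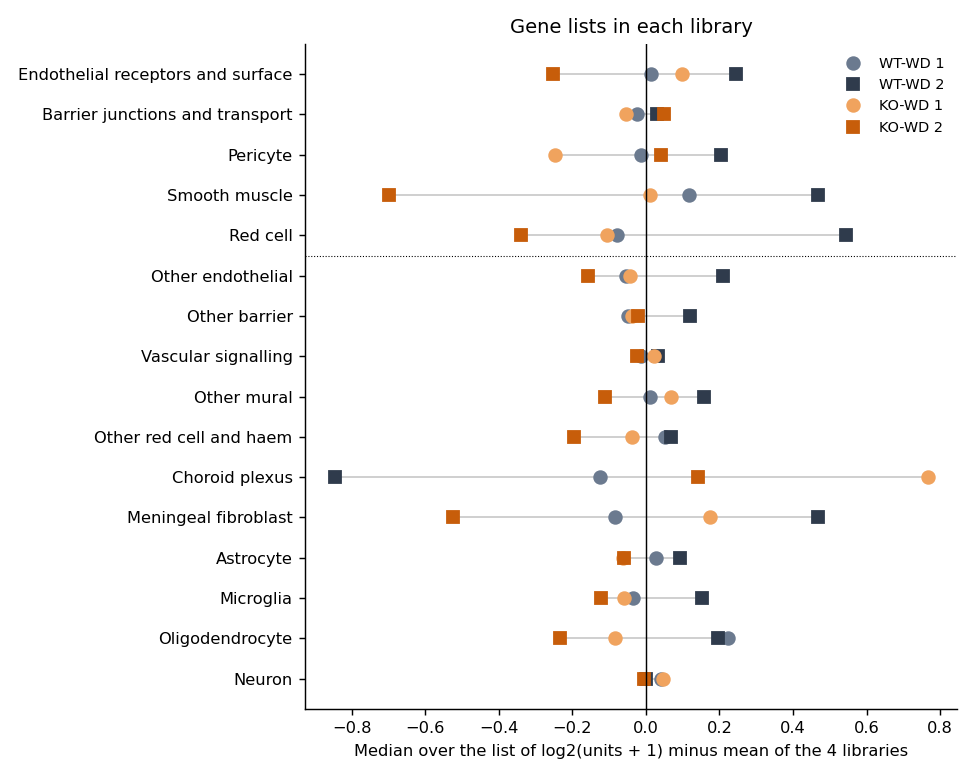
Median over each gene list of log2(units + 1) minus the mean of the 4 libraries, one point per library; circles are replicate 1, squares replicate 2, and the dotted line divides the 40 genes (above) from other lists (below). Smooth muscle runs from 0.47 in WT-WD 2 to -0.70 in KO-WD 2 and meningeal fibroblasts from 0.47 to -0.52, while choroid plexus has KO-WD 1 at the top and WT-WD 2 at the bottom and neurons stay near 0.

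Red cells gave 4 globins and Alas2, the first enzyme of haem synthesis in red cells. The adult mouse makes haemoglobin from the alpha chains of Hba-a1 and Hba-a2 on chromosome 11 and the beta chains of Hbb-bs and Hbb-bt on chromosome 7. The coding sequences of each pair are nearly alike, so their reads are hard to assign to one gene. Hba-a1 and Hba-a2 differ at 1 of 429 coding bases (99.8% identical), and Hbb-bs and Hbb-bt at 1 of 444. Of the 50-base windows of Hba-a2, 86.9% are also in Hba-a1, and 65.8% of those of Hbb-bs are in Hbb-bt. The coding stretches around the differing base (bases 351 to 411 for the alpha pair and 387 to 444 for the beta pair, counted from the A of the start codon) are shown because only a read across such a base can separate a pair within the coding part, and the capital marks that base.
Hba-a1: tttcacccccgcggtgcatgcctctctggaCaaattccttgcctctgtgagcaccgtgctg
Hba-a2: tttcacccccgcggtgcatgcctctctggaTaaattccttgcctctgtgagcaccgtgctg
Hbb-bs: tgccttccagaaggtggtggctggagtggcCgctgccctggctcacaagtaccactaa
Hbb-bt: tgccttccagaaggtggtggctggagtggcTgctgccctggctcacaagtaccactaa

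The 4 globins together gave 704 and 932 units in WT-WD and 646 and 532 units in KO-WD. All 4 were lower in both KO-WD libraries than in either WT-WD library, as were 18.4% of all genes. Reads are hard to assign within each pair, so the 4 genes are not independent observations. The nearest KO-WD and WT-WD values were close in Hba-a1 (193 against 196 units), Hbb-bs (153 against 158) and Hbb-bt (15.9 against 16.3). They were farther apart in Hba-a2 (287 against 334). Hba-a2 had the most signal, at 334 and 409.9 units in WT-WD and at 287 and 248 units in KO-WD, 1.39-fold lower in KO-WD (log2 -0.47, SE 0.14, limma adjusted p = 0.848). Hba-a1 stood at 196 and 303 units in WT-WD and at 193 and 161 units in KO-WD, also with a log2 difference of -0.47 (SE 0.23, limma adjusted p = 0.902). The gap between WT-WD 1 and KO-WD 1 was small in Hba-a1, and WT-WD 2 was high in both alpha genes. Without WT-WD 2 the Hba-a1 difference was -0.16, and without WT-WD 1 it was -0.78. Each alpha transcript is listed in 2 entries that were summed here, and with the first entry alone the log2 differences were -0.40 for Hba-a2 and -0.35 for Hba-a1, an alternative chosen after seeing the data.

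The beta genes were lower in KO-WD as well. Hbb-bs stood at 158 and 192 units in WT-WD and at 153 and 106 units in KO-WD (log2 -0.45, SE 0.20, limma adjusted p = 0.902). Hbb-bt, the beta gene with less signal here, stood at 16.3 and 27.5 units in WT-WD and at 13.1 and 15.9 units in KO-WD (log2 -0.52, SE 0.29, limma adjusted p = 0.902). Its lowest library was KO-WD 1, whereas that of both alpha genes was KO-WD 2. The log2 difference of Hbb-bt was -0.16 without WT-WD 2 and -0.88 without WT-WD 1. The ratio of alpha to beta globin signal was 3.05 and 3.25 in WT-WD and 2.90 and 3.35 in KO-WD, so the chains moved nearly together from library to library. Alas2 did not follow them, at 1.46 and 6.02 units in WT-WD and at 5.75 and 3.53 units in KO-WD (log2 0.41, SE 0.55, limma adjusted p = 0.942). WT-WD 1, with about 6 estimated reads, was the low one. The exons of Alas2 overlap Apex2 on the other strand, so some of these few reads may not be its own.

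The 4 globin genes are switched on together in red cell precursors, and the 110 bases before each start are shown because 3 short motifs recur in them. Capitals mark CACCC (bound by Krüppel-like factors), CCAAT and the TATA-like ATATAA, each searched on both strands, and adjoining motifs run together in Hbb-bt. Over the 32851 promoters, windows of this length held CACCC in 29.6%, CCAAT in 20.2% and ATATAA in 4.09%. The sequences are RefSeq's on GRCm38.p6, at chr11:32283562-32283671 (plus strand), chr11:32296382-32296491 (plus), chr7:103827929-103828038 (minus) and chr7:103813924-103814033 (minus), in the order listed. The alpha pair share an unbroken run of 247 bases within the 250 before their starts.
Hba-a1: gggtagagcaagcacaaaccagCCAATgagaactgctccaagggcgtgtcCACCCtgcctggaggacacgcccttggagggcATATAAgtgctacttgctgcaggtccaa
Hba-a2: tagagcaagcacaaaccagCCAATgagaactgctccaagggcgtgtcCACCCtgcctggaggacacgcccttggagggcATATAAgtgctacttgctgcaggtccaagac
Hbb-bs: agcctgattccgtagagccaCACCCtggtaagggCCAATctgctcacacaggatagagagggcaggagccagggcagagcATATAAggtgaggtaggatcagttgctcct
Hbb-bt: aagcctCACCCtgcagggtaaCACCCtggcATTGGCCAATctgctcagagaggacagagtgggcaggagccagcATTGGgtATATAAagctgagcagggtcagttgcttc

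Per kilobase of its longest annotated transcript, the levels of the 40 genes spanned a wide range. Bsg led with a mean level of 964 units per kilobase in WT-WD and 903 in KO-WD, followed by Hba-a2 (671 and 483), Hba-a1 (357 and 253) and Hbb-bs (278 and 206). In the WT-WD order Vtn and Slc2a1 came next and were almost equal in level, at 121 and 120.1 units per kilobase in WT-WD and 88.4 and 90.3 in KO-WD, and the 2 libraries of each group overlapped between these 2 genes. Ly6c1 followed with 73.2 in WT-WD and 95.5 in KO-WD, then Cldn5 with 38.9 and 28.9 and Mfsd2a with 38.1 and 39.0. In KO-WD the mean level of Ly6c1 was above those of Vtn and Slc2a1, and Mfsd2a was above Cldn5. The least abundant was Cnn1, with 0.998 and 0.938 units per kilobase.

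The genes were also read transcript by transcript, since 19 of the 40 had several listed transcripts. Of the 66 member transcripts tested, 8 had an unadjusted p under 0.05 (12.1%, against 5.69% of the 29293 transcripts tested), and none passed at an adjusted p under 0.05 in limma. The sources used here do not give the authors' rule for dividing reads among transcripts. In Pecam1, 3 of the 4 transcripts averaged lower in KO-WD. The one with the largest drop in mean signal was NM_001305157, at 42.5 and 20.8 units in WT-WD and at 9.67 and 11.04 units in KO-WD (limma adjusted p = 0.84). The exception, NM_001305158, went from 3.03 and 2.67 units in WT-WD to 13.3 and 10.05 units in KO-WD, or from 4.10% to 24.7% of the gene's signal (limma adjusted p = 0.816). In Egfl7, NM_001164564 made up 53.2% of the signal in WT-WD and 85.8% in KO-WD, at 14.8 and 20.9 against 41.9 and 35.1 units (limma adjusted p = 0.837). NM_198724 of the same gene stood at 8.68 and 8.73 units in WT-WD and at 2.08 and 2.86 units in KO-WD (limma adjusted p = 0.84), so the higher total of Egfl7 came with a higher level of 1 listed transcript beside lower levels of the other 2.

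Tek, whose total overlapped between the groups, had a transcript make-up that did not. NM_001290551 made up 41.3% and 28.5% of its signal in WT-WD and 76.7% and 76.3% in KO-WD, while NM_001290549 stood at 8.27 and 9.37 units in WT-WD and at 3.44 and 2.06 units in KO-WD (limma adjusted p = 0.858). In Flt1 the make-up was steady, with NM_001363135 at 57.2% of the signal in WT-WD and 55.7% in KO-WD. In Slco1a4 the transcript with the larger part of the difference was NM_001355577, at 17.6 and 42.5 units in WT-WD and at 45.1 and 58.6 units in KO-WD (limma adjusted p = 0.92). In Bsg, NM_001077184 held 98.2% of the WT-WD signal and 97.9% of the KO-WD signal. In Ly6c1 the transcript with the larger part of the difference was NM_001252055, at 29.4 and 45.3 units in WT-WD and at 58.1 and 52.2 units in KO-WD. In Ocln it was NM_001360536, at 8.12 and 7.51 against 12.8 and 14.0 units. In Myh11, a lower gene, it was NM_001161775, at 43.9 and 44.2 units in WT-WD and at 36.0 and 27.4 units in KO-WD.

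**Figure D5:**
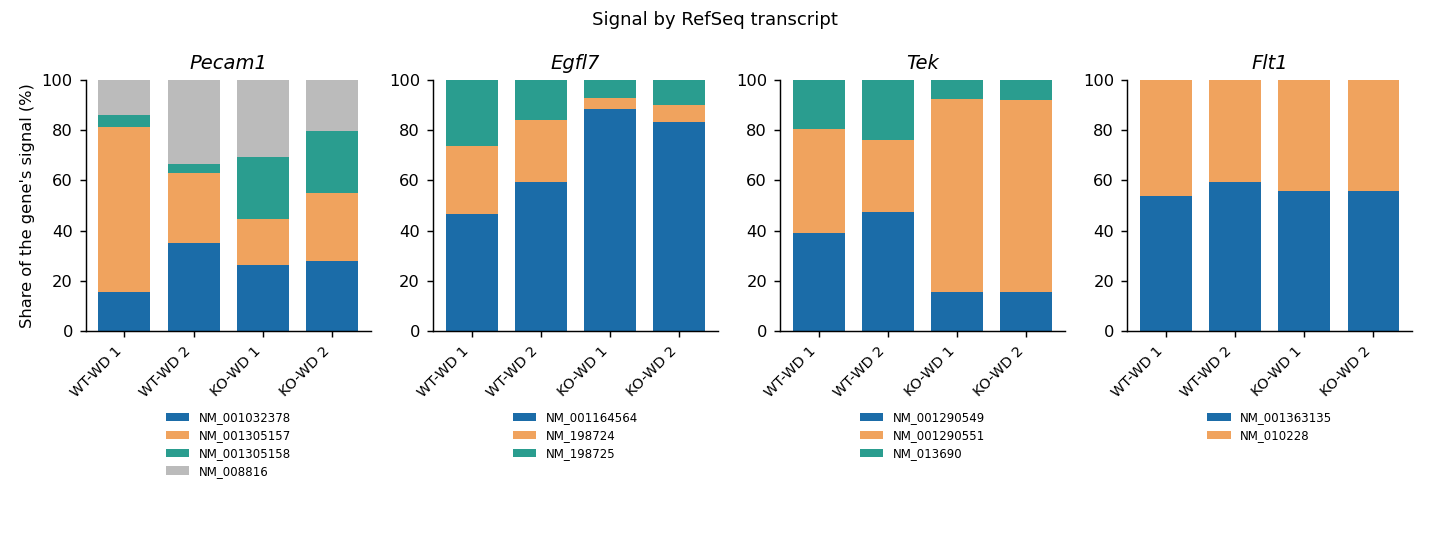
Share of each gene's signal, in percent, given to each listed RefSeq transcript in each library, for Pecam1, Egfl7, Tek and Flt1. In Egfl7 and Tek the KO-WD bars differ from the WT-WD bars in the same direction in both libraries, while the Flt1 bars are close to equal.

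Genes of the same cells that were not among the 40 were read as a comparison. Of 19 further endothelial genes 16 were lower, with a median log2 difference of -0.26. An unadjusted p under 0.05 was found for 1 of the 19 (5.26%, against 5.28% of all genes in either direction), a share near the background. That gene was S1pr1, a sphingosine-1-phosphate receptor that endothelium shares with astrocytes, at 222 and 245 units in WT-WD and at 192 and 162 units in KO-WD (log2 -0.40, limma adjusted p = 0.876). The endothelial phosphatase Ptprb (log2 -0.35, limma adjusted p = 0.902) and the transcription factor Erg (log2 -0.51, limma adjusted p = 0.902) were next, both lower without overlap. Of 19 further barrier genes 12 were lower and 7 higher, with a median of -0.026. Cav1, the coat protein of caveolae, stood at 15.8 and 27.6 units in WT-WD and at 9.61 and 11.5 units in KO-WD (log2 -0.93, limma adjusted p = 0.89). The amino acid carrier Slc38a5 stood at 2.59 and 2.64 against 1.52 and 0.925 units, and the junction protein Jam2 at 65.8 and 65.6 against 58.7 and 52.1 units.

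A mixed list of vascular signalling genes, ligands and receptors among them, showed no lean. Of its 26 genes 12 were lower and 14 higher, with none at an unadjusted p under 0.05. Vegfa, the growth factor read by Flt1 and Kdr, stood at 225 and 265 units in WT-WD and at 201 and 226 units in KO-WD. Acvrl1, an endothelial receptor for bone morphogenetic proteins, had a log2 difference of -0.50 (limma adjusted p = 0.902), and the Notch ligand Dll1 one of 0.34 (limma adjusted p = 0.91). Of 22 further mural genes 20 were tested, of which 14 were lower and 6 higher, with a median of -0.083. Gja4, the gap junction protein connexin 37 of arterial cells, stood at 8.77 and 12.2 units in WT-WD and at 2.88 and 6.71 units in KO-WD (log2 -1.05, limma adjusted p = 0.902). Art3, a surface protein of mural cells, was near the limit of detection at 0.312 and 1.35 against 2.69 and 3.47 units (limma adjusted p = 0.902), and Atp13a5, a pericyte marker, had a log2 difference of -0.40 (limma adjusted p = 0.902).

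Other blood genes were read in the same way. Of 11 further red cell and haem genes 6 were tested, 5 lower and 1 higher, with a median log2 difference of -0.16. The haem and glycolysis enzymes that many tissues use had the smallest p-values among them, Alad (log2 -0.53, limma adjusted p = 0.902), Fech (log2 -0.11) and Bpgm (log2 -0.14). Alad stood at 56.3 and 104 units in WT-WD and at 56.6 and 48.6 units in KO-WD, so its groups overlapped and WT-WD 2 alone was high. Slc4a1, the anion exchanger of the red cell membrane, gave 1.03 and 1.13 units in WT-WD and 0.887 and 0.732 units in KO-WD, only a few reads each. Of 9 platelet and leukocyte genes 3 were tested, and the other 6 either fell under the filter or are not analysed here. Ptprc, the leukocyte antigen CD45 that microglia also carry, stood at 8.02 and 10.5 units in WT-WD and at 4.76 and 7.38 units in KO-WD (limma adjusted p = 0.902). The platelet genes Itga2b and Gp9 lay between 0.259 and 3.47 units, with overlapping groups.

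The lean towards lower signal was not limited to vessels. Oligodendrocyte markers were lower in 6 of 6 genes, with a median log2 difference of -0.36, and 3 (50%) had an unadjusted p under 0.05, against 2.9% of all genes on the lower side and 49.9% of all genes with a difference below 0. Microglia markers were lower in 6 of 7, with a median of -0.20, and P2ry12 had the smallest p-value among them (limma adjusted p = 0.902). Neuron markers had a median of -0.055, with 4 lower and 3 higher. Whether the vascular genes differ from these other cell types was not tested.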

How the data were processed

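Hippocampal total RNA went into Ion Torrent libraries, per the labels' protocols. STAR, Partek and the build mm39 appear in the submitters' processing notes; the sources used here give neither versions nor the normalization. The authors deposited normalized signal for 30108 RefSeq transcripts per library, with a constant of 0.0001 that was subtracted. Symbols came from a RefSeq table (GRCm38.p6, 30073 transcripts) and GENCODE M21 (4 more); 31 stayed unmatched. Transcripts were summed per gene, and genes that reached 1 unit in 2 or more libraries were tested in limma 3.58.1 (R 4.3.3) on log2(units + 1), with intensity trend, robust moderation and genotype as the only term, two-sided, with Benjamini-Hochberg adjustment. Of the values under 20 estimated reads, 16.4% to 22.9% were whole within 0.02 read, so no count model was used. Members and lists were chosen with earlier results of these data known. Within each kind of gene the 3 smallest p-values and the most abundant gene are given in full (Acta2 was added after its values were seen), other members in shorter form, and up to 3 genes per other list. Single transcripts are given for some of the genes where 1 carries over 50% of the difference, while Slc4a1, the Flt1 transcript and the second transcripts of Pecam1, Egfl7 and Tek were named after their values were seen. Alternatives are named in the closing section.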

Additional observations from a re-analysis of the deposited data

How the results depend on the processing

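None of the 40 genes was called under any of 15 alternatives, where the lowest adjusted p in limma was 0.185. The median over the 40 genes stayed below 0 in all of them, and 27 of the 40 genes kept their direction in all. The number of genes called across all genes was 10, and it was 47 with the replicate number as a replicate block, 1 with coding transcripts alone, 0 with limma without trend or robust moderation (951 at an unadjusted p under 0.05), and 14 to 95 when each library was left out in turn. The number of the 40 with an unadjusted p under 0.05 was 10 with the replicate block, 5 without trend or robust moderation and 2 to 13 with a library left out. The deviations of same-numbered libraries had a correlation of 0.0389, and the labels do not pair them, so the block is not a paired design. Leaving out each library, the endothelial median ran from -0.30 to 0.084 and the barrier median from -0.11 to 0.048. The genes that turned direction did so only when a library was left out, over these log2 ranges: Kdr from -0.21 to 0.095, Tek from -0.59 to 0.10, Esam from -0.0087 to 0.14, Itm2a from -0.40 to 0.095, Sox17 from -0.16 to 0.29, Cldn5 from -0.79 to 0.082, Tjp1 from -0.21 to 0.19, Mfsd2a from -0.026 to 0.094, Abcg2 from -0.27 to 0.071, Abcc9 from -0.50 to 0.24, Anpep from -0.77 to 0.43, Cnn1 from -0.99 to 0.50 and Alas2 from -0.34 to 1.17. The cause was not tested. A filter at 5 units gave no value for Cnn1. With 2 libraries a group, a lone library was assumed to vary like the others when its partner was left out. Genes under about 5 units, such as Cnn1 and Alas2, rest on few reads.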
